A study of Mus musculus with 16 samples.

Results

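The small leucine-rich proteoglycans are secreted matrix proteins that bind collagen fibrils, and 9 of their genes were followed here in mouse liver: Dcn, Bgn, Lum, Fmod, Ogn, Aspn, Prelp, Omd and Podn. The rule that defines them uses gene names and no signal, and all 9 were among the 24357 genes tested. The data are 16 Agilent 1-colour arrays of liver RNA, each from a single animal, made to ask how CCl4 acts in mice without Lcn2, the gene of the secreted protein lipocalin 2. CCl4 is a solvent that hepatocytes turn into a toxic radical, and repeated doses scar the liver. The animals were male BALB/c mice, 6 to 8 weeks old when treatment began. The Lcn2-/- line, first made in a mixed 129/Ola and C57BL/6 background, had been backcrossed to BALB/c. The 4 groups were WT control (n = 4) and Lcn2-/- control (n = 3), given corn oil for 4 weeks, and WT CCl4 (n = 5) and Lcn2-/- CCl4 (n = 4), given CCl4 in corn oil at 0.5 ml/kg, 2 injections per week for 4 weeks. The CCl4 livers were collected 48 h after the final dose. The deletion is present in every cell of the Lcn2-/- animals, and whole liver was assayed, so fewer cells of a type and less RNA per cell cannot be told apart.

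Each of these proteins holds a row of leucine-rich repeats that forms a curved core. The core lies along collagen fibrils and limits how thick they grow, and several members also hold growth factors such as TGF-beta in the matrix. In liver they are made mostly by stellate cells, portal fibroblasts and the myofibroblasts that arise from them after injury. Class I holds decorin (Dcn) and biglycan (Bgn), which carry chondroitin or dermatan sulphate chains, and asporin (Aspn), which has a run of aspartate residues in place of a chain. Class II holds lumican (Lum) and fibromodulin (Fmod), which can carry keratan sulphate, prolargin (Prelp), which binds heparan sulphate and collagen, and osteomodulin (Omd). Osteoglycin (Ogn) belongs to class III, and podocan (Podn) to a smaller class apart.

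The genes lie in clusters. In the RefSeq gene order of GRCm38.p6, Prelp and Fmod are adjacent coding genes, as are Dcn and Lum, while Aspn, Omd and Ogn stand in a row, and Bgn and Podn have no member beside them. Promoter sequence from RefSeq was matched by symbol for 7 of the 9 members, with no entry for Dcn and Lum. Below are the 250 bases before the most upstream start of 4 members on the gene's own strand, shown because Fmod and Prelp are neighbours whose signals rose after CCl4 in WT, while Omd and Ogn are neighbours whose signals passed the test in neither genotype. Capitals mark matches on either strand to the SMAD core CAGAC, the TATA motif TATAAA, the CCAAT motif CCAAT, the AP-1 motif TGANTCA and the GC box GGGCGG.

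Fmod, chr1:134037004-134037253 (GRCm38.p6, plus strand): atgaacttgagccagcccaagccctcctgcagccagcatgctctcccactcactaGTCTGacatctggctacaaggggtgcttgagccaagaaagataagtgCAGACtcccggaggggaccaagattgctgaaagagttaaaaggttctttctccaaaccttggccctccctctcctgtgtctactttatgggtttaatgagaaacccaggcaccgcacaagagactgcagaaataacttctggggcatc

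Prelp, chr1:133921402-133921651 (GRCm38.p6, minus strand): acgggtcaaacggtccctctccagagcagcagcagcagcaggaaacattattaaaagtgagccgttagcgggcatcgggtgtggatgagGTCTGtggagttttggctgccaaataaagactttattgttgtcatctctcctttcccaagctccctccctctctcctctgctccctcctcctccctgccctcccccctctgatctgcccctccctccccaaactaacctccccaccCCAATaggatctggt

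Omd, chr13:49582212-49582461 (GRCm38.p6, plus strand): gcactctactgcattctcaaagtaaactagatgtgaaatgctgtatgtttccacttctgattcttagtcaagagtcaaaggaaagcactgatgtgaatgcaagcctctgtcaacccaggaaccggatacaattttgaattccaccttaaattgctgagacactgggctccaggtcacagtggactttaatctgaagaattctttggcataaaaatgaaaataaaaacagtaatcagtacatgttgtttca

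Ogn, chr13:49607765-49608014 (GRCm38.p6, plus strand): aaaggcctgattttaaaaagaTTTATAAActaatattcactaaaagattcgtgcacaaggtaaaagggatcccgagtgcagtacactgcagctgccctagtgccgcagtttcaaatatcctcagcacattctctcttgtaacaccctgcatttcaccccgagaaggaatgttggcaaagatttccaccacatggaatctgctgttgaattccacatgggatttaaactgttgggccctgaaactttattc

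The CAGAC letters were found in the Fmod window, with 2 matches, and in the Prelp window, with 1 match, and in none of the other 5 member windows. Of all 32851 promoter windows of this length, 42.2% hold them. Prelp also holds CCAAT, which 33.8% of all windows hold. In Ogn the capitals are 2 TATAAA matches that overlap on opposite strands, a motif found in 12.4% of all windows. The Omd window held no match to any of the 5 motifs. The AP-1 letters were in 0 of the 7 member windows and in 6.75% of all windows, and the GC box, present in 32.7% of all windows, was found in the windows of Bgn and Podn. The GC content was 51.2% for Fmod, 55.6% for Prelp, 38.4% for Omd and 42% for Ogn, against a median of 52.4% over all windows. These matches describe the letters, and binding was not measured here.

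Signals are given as log2 of the processed intensity after quantile normalization, so 1 unit is a 2-fold difference, and levels of different genes cannot be set against each other because each has its own probe. Each member had 1 probe, printed in 1 spot. The probes lie, on the mm9 build, at chromosome 10, 96980233 to 96980292 (Dcn) and 97035210 to 97035269 (Lum), chromosome X, 70738554 to 70738613 (Bgn), and chromosome 1, 135943998 to 135944057 (Fmod) and 135806855 to 135806914 (Prelp). The others lie at chromosome 13, 49662479 to 49662538 (Aspn), 49687847 to 49687906 (Omd) and 49719549 to 49719608 (Ogn), and chromosome 4, 107687484 to 107687543 (Podn). The part of the transcript that each probe covers was not analysed here. Of the genes, 8 were well above background on all 16 arrays, and Aspn on 4.

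Between 51.6% and 60.9% of gene spots were well above background on an array, and 0 were saturated. Lcn2 itself separated the genotypes, at 13.80 to 17.57 on the 9 WT arrays and 10.46 to 12.25 on the 7 Lcn2-/- arrays. Hepatocyte markers, 8 of 8 well above background in every group, had a mean signal of 17.26 to 17.89 on all arrays, as liver should. On the first principal component the controls nearest to CCl4 were replicate 3 of each genotype. The arrays sat on 2 slides in 2 tiers. Slide 1 held all controls and WT CCl4 1, and slide 2 held the other CCl4 arrays, so slide and treatment are separated by that 1 array. Tier 1 held the WT arrays other than WT CCl4 1, and tier 2 held WT CCl4 1 and the Lcn2-/- arrays, so tier and genotype are also separated by that array, and in the controls they cannot be told apart. The labels name separate samples, 1 per animal.

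**Figure D1:**
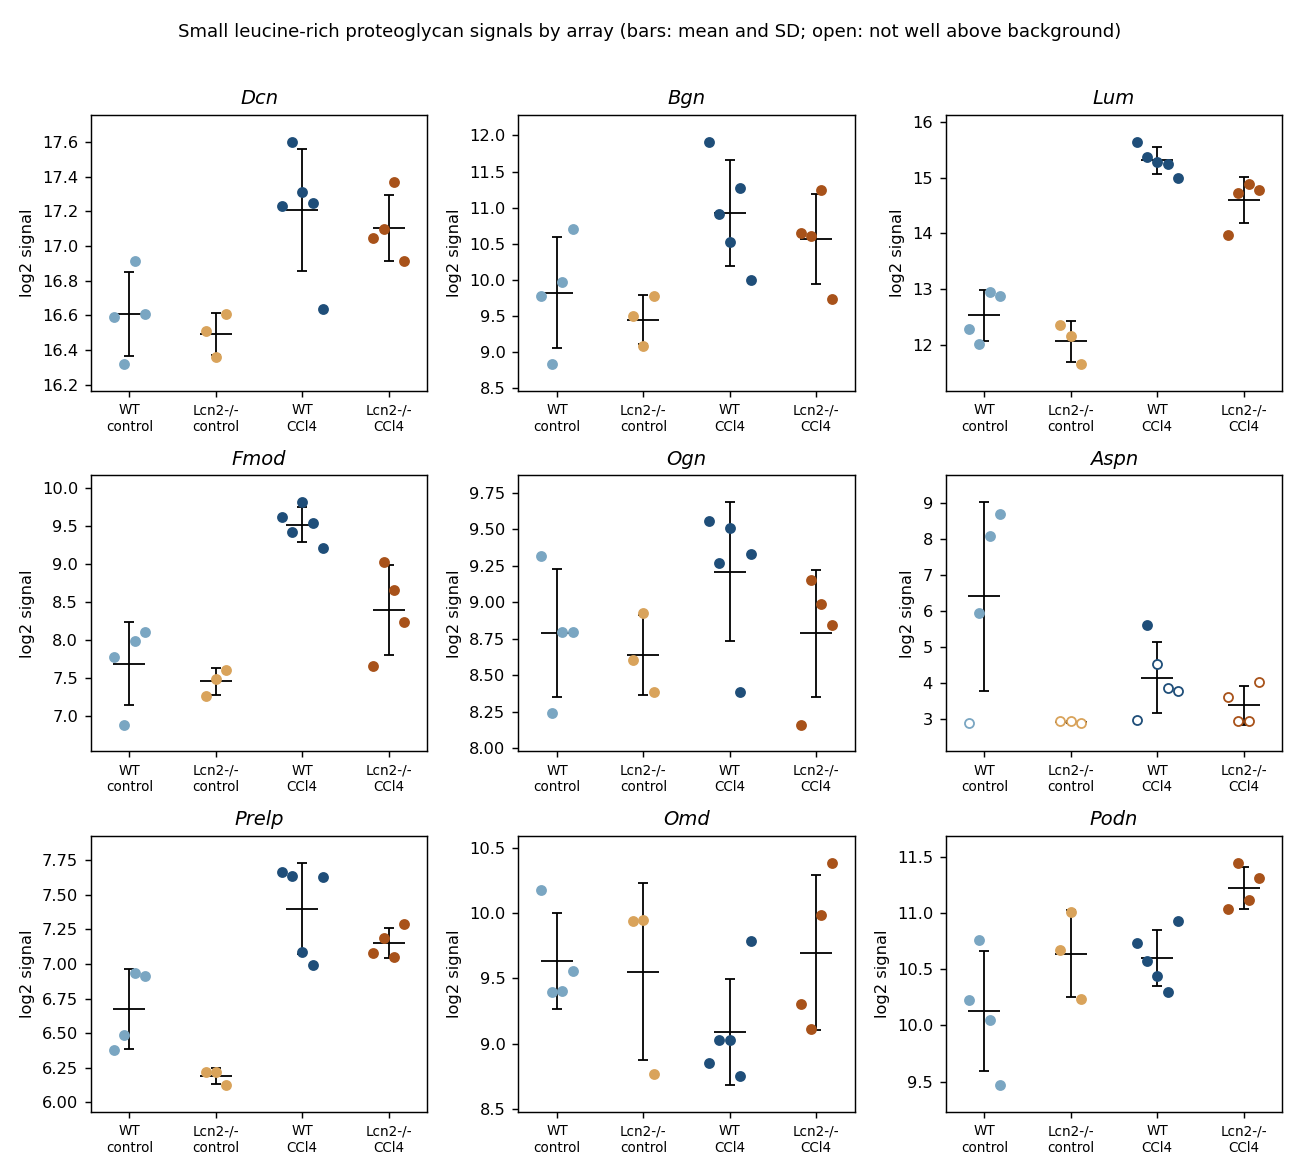
Log2 signal (vertical axis) of each of the 9 genes in the 4 groups, 1 point per array, with the group mean and SD as bars and open points where the spot was not well above background. Lum separates CCl4 from control arrays in both genotypes, from at most 12.95 in controls to at least 13.98 after CCl4, while Aspn is well above background on 4 arrays.

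In WT, CCl4 raised Lum 6.87-fold, Fmod 3.57-fold, Prelp 1.65-fold and Dcn 1.51-fold. These 4 of 9 genes, all higher, were past the threshold of an adjusted p of 0.05. Of all genes tested, 16.7% passed in either direction and 8.05% were higher. Aspn was well above background on 1 of the 5 WT CCl4 arrays and is described apart. Of the other 8 the signal was higher for 7, with Omd lower, and their median difference was 0.66 against -0.03 over all genes. In 3 of the 8, Lum, Fmod and Prelp, every CCl4 array lay above every control, against 8.09% of all genes.

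Lum, the keratan sulphate proteoglycan lumican, read 12.28, 12.02, 12.95 and 12.87 on the 4 WT control arrays. On the 5 WT CCl4 arrays it read 15.65, 15.38, 15.29, 15.25 and 14.99. The lowest CCl4 array was more than 2 units above the highest control. The difference was 2.78 (SE 0.236, adjusted p 4.83e-06), which ranked 52 of all genes by p. Its exact permutation p, two-sided, was 0.00794, the smallest that the 126 splits of these arrays allow. With slide as a block, where WT CCl4 1 alone is set against the controls of its own slide, it was 3.12 (SE 0.391, adjusted p 0.000914).

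Fmod, fibromodulin, which competes with lumican for collagen, gave 7.77, 6.88, 7.99 and 8.10 in WT control. In WT CCl4 the arrays gave 9.62, 9.42, 9.82, 9.54 and 9.21. The 5 CCl4 arrays were within 1 unit of each other and clear of the controls. Fmod was higher by 1.83 (SE 0.274, adjusted p 0.000383), and by 1.93 with slide as a block (SE 0.472, adjusted p 0.0324). As for Lum, that value sets the lone WT CCl4 1 against the controls of slide 1, and the SE assumes that it varies like the other arrays.

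Prelp, prolargin, the neighbour of Fmod, measured 6.38, 6.49, 6.94 and 6.91 in WT control and 7.66, 7.63, 7.09, 6.99 and 7.63 in WT CCl4. The groups did not overlap, though the highest control and the lowest CCl4 array were close. The difference of 0.72 (SE 0.166) had an adjusted p of 0.00825. With slide as a block it was 0.99 (SE 0.272) and no longer passed, at an adjusted p of 0.0537. With normexp background correction it was smaller, at 0.48 (adjusted p 0.00707).

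Dcn, decorin, the TGF-beta binding member and neighbour of Lum, had signals of 16.59, 16.32, 16.91 and 16.60 in WT control and 17.23, 17.60, 17.31, 17.25 and 16.64 in WT CCl4. The array WT CCl4 5 lay among the controls. Dcn was higher by 0.60 (SE 0.173, adjusted p 0.0292). This call was lost without any 1 of WT control 1, 2 and 4 and WT CCl4 1, 2, 3 and 4, at adjusted p values of 0.0547 to 0.105. It was also lost with 75th percentile scaling, where the difference was 0.34 (limma adjusted p 0.0577). A fit of the WT arrays alone (0.60, adjusted p 0.0728) and slide as a block (0.62) lost it too. Tier as a block gave 0.59, which repeats the fit without WT CCl4 1, since that array alone sets the tier term.

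The other 5 genes did not pass in WT. Bgn, biglycan, the close relative of decorin, was at 9.82 ± 0.767 (SD, n = 4) in WT control and 10.93 ± 0.729 (n = 5) in WT CCl4, a difference of 1.10 with a 95% interval of 0.21 to 1.99 (adjusted p 0.0846). It passed without WT control 4 (1.40, adjusted p 0.0434) or without WT CCl4 5 (1.34, adjusted p 0.0434), and with array weights (1.26, adjusted p 0.0136). With slide as a block Bgn was 2.09 (adjusted p 0.0759), beyond the interval above. Podn, podocan, which inhibits smooth muscle cell growth, differed by 0.47 (interval -0.02 to 0.96, adjusted p 0.18). Ogn, osteoglycin, differed by 0.42 (interval -0.16 to 1.01, adjusted p 0.323). Without single arrays Podn ran from 0.25 to 0.68 and Ogn from 0.24 to 0.63. Omd, osteomodulin, a bone matrix protein, was the 1 gene clearly measured in all groups whose mean was lower in WT CCl4, at 9.09 ± 0.408 against 9.63 ± 0.37, and its interval ran from -1.22 to 0.14 (adjusted p 0.271). With array weights Omd passed as lower (-0.86, adjusted p 0.028).

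In Lcn2-/-, CCl4 raised Lum 5.78-fold and Prelp 1.95-fold, and these were the 2 of 9 genes past the threshold. The share of all genes past it was 12.1% in either direction and 6.56% higher. Aspn was not well above background on any Lcn2-/- array. The mean was higher after CCl4 for the other 8 genes, with a median difference of 0.78 against -0.02 over all genes. In 5 of these 8 every CCl4 array lay above every control array, against 12.1% of all genes, which with 3 and 4 arrays is a coarse count. Lum measured 12.36, 12.17 and 11.66 in Lcn2-/- control and 13.98, 14.72, 14.89 and 14.78 in Lcn2-/- CCl4. Array 1 of the CCl4 group was the lowest of its group and still above every control. The Lum difference was 2.53 (SE 0.268, adjusted p 4.73e-05), and 2.95 with slide as a block (SE 0.473, adjusted p 0.00722). No slide held both Lcn2-/- groups, so the blocked values of this genotype take the slide difference from the single array WT CCl4 1. Prelp read 6.22, 6.22 and 6.13 in the controls and 7.08, 7.19, 7.05 and 7.29 after CCl4. Its 3 control arrays were within 0.1 unit of each other, and the difference was 0.96 (SE 0.189, adjusted p 0.00404). With slide as a block that was 1.29 (SE 0.329) at an adjusted p of 0.0668, and with normexp correction 0.48 (adjusted p 0.0199), so the size of the Prelp rise changes with the background correction.

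Fmod and Dcn, raised in WT, did not pass in Lcn2-/-. Fmod read 7.26, 7.49 and 7.61 in Lcn2-/- control and 7.66, 9.03, 8.66 and 8.23 in Lcn2-/- CCl4, so the CCl4 arrays spanned a wider range and array 1 was next to the controls. The difference was 0.94 (interval 0.28 to 1.61, adjusted p 0.0636). Without that array it was 1.19 (adjusted p 0.019), and the call was also made without WT control 2 (adjusted p 0.0305), in the authors' value table (0.871, adjusted p 0.0475) and with array weights (1.16, adjusted p 0.0038). Dcn read 16.51, 16.36 and 16.60 in the controls and 17.05, 17.09, 17.37 and 16.91 after CCl4, with no overlap. Its difference of 0.61 (interval 0.19 to 1.04) was as large as in WT and had an adjusted p of 0.0576. It passed without WT CCl4 2 (adjusted p 0.046) or WT CCl4 5 (adjusted p 0.0196), with 75th percentile scaling at 0.45 (adjusted p 0.0406), with slide as a random block (adjusted p 0.047), with the replicate block (adjusted p 0.0204) and with array weights (0.70, adjusted p 0.00268). Bgn differed by 1.11 (adjusted p 0.146), by 1.38 with array weights (adjusted p 0.0118) and by 2.35 with slide as a block (adjusted p 0.147), and Podn by 0.59 (adjusted p 0.162). Without single arrays Podn ran from 0.38 to 0.77. Ogn and Omd differed by 0.15 and 0.14, with intervals of -0.52 to 0.81 and -0.63 to 0.92.

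**Figure D2:**
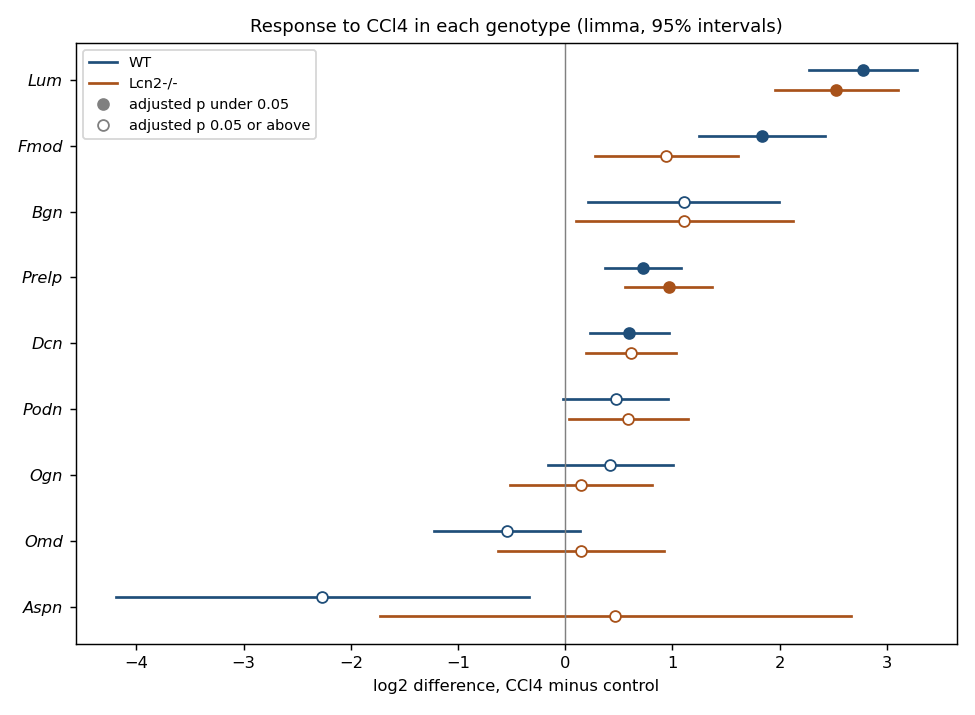
Log2 difference between CCl4 and control (horizontal axis) for each gene in WT (blue) and Lcn2-/- (orange), with 95% intervals, filled where the adjusted p is under 0.05. Lum is past the threshold in both genotypes at 2.78 and 2.53, and Fmod in WT at 1.83 but not in Lcn2-/- at 0.94.

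Whether the response differed between genotypes was asked by the interaction, which subtracts the WT response from that of Lcn2-/-. None of the 9 passed (0 of 9, limma), against 0.0534% of all genes. At an unadjusted p under 0.05 there was 1 of the 9, Fmod, against 3.31% of all genes. The Fmod interaction was -0.89 (interval -1.78 to -0.0006, p 0.0499, adjusted p 1.00). That of Lum was -0.25 (interval -1.02 to 0.52), that of Prelp 0.24 (-0.30 to 0.78) and that of Dcn 0.01 (-0.55 to 0.58).

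The genotypes were then compared after CCl4. The Lcn2-/- animals had lower Fmod (2.18-fold) and Lum (1.64-fold) and higher Podn (1.55-fold) than WT, without passing the adjusted threshold. By limma, 0 of the 9 passed, against 0.649% of all genes, and 3 of the 8 other than Aspn had an unadjusted p under 0.05, against 13.6% of all genes. The groups did not overlap for the same 3 genes, against 5.67% of all genes. The means of 6 of these 8 were lower in Lcn2-/-, with a median difference of -0.30 against -0.01 over all genes.

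For Fmod the 4 Lcn2-/- arrays given above, 7.66 to 9.03, all lay below the 5 WT arrays, 9.21 to 9.82. The means were 8.39 ± 0.59 and 9.52 ± 0.226, a difference of -1.13 (SE 0.274, p 0.00103, adjusted p 0.0919). The exact permutation p was 0.00794, the smallest that 126 splits allow. Fmod passed over all genes with normexp background correction (-0.975, adjusted p 0.0405) and in the authors' value table (-1.09, adjusted p 0.0475). It passed as well without WT control 2 (adjusted p 0.0486) and without Lcn2-/- CCl4 2 (-1.34, adjusted p 0.0426). Without Lcn2-/- CCl4 1, the lowest array, it was -0.88 (adjusted p 0.242). Within slide 2, without WT CCl4 1, the difference was -1.10 (SE 0.299, adjusted p 0.147). Within tier 2, where WT CCl4 1 stands alone for WT, it was -1.22 (SE 0.472, adjusted p 0.449).

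For Lum the Lcn2-/- arrays, 13.98 to 14.89, also lay below the WT arrays, 14.99 to 15.65, with the highest and lowest of the groups close together. The difference was -0.72 (SE 0.236, p 0.00884, adjusted p 0.215, exact permutation p 0.0159). It was -0.63 within slide 2 and -1.05 within tier 2. The smallest value over the fits without 1 array, -0.51, came without Lcn2-/- CCl4 1. Array 1 of the Lcn2-/- CCl4 group was thus the lowest of its group for Lum and Fmod, and it had the lowest signal of its group for 4 of the 9.

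Podn went the other way. It measured 10.74, 10.57, 10.44, 10.30 and 10.93 in WT CCl4 and 11.04, 11.45, 11.11 and 11.31 in Lcn2-/- CCl4. The groups did not overlap, with a gap near 0.1 unit. The difference was 0.63 (SE 0.228, p 0.0151, adjusted p 0.259, exact permutation p 0.0159), 0.67 within slide 2 and 0.49 within tier 2. In controls Podn differed by 0.51 in the same direction (interval -0.04 to 1.07, adjusted p 0.667). Without single arrays this control difference ran from 0.29 to 0.72. The comparison in controls has no array in common with the one under CCl4, but both share the layout of tiers. Tier goes with genotype in controls, and under CCl4 apart from WT CCl4 1. With tier as a block, which rests on WT CCl4 1, the Podn difference in controls was 0.34.

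The remaining genes gave no call and overlapped between genotypes under CCl4. Dcn differed by -0.10 (interval -0.47 to 0.27), which leaves room for a fall of up to 0.47, and Prelp by -0.25 (-0.60 to 0.11). With 1 array left out Dcn ran from -0.24 to -0.0012. Bgn differed by -0.36 (-1.25 to 0.53) and Ogn by -0.42 (-1.01 to 0.16). With tier as a block, which rests on WT CCl4 1, these were -1.35 (adjusted p 0.564) and -0.77 (adjusted p 0.681), and without single arrays Bgn ran from -0.59 to -0.09, the smallest without Lcn2-/- CCl4 4. Omd was higher by 0.61 in Lcn2-/- (-0.08 to 1.29, adjusted p 0.427), at 9.70 ± 0.594 against 9.09 ± 0.408. Without single arrays Omd ran from 0.38 to 0.80 and Ogn from -0.63 to -0.21.

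**Figure D3:**
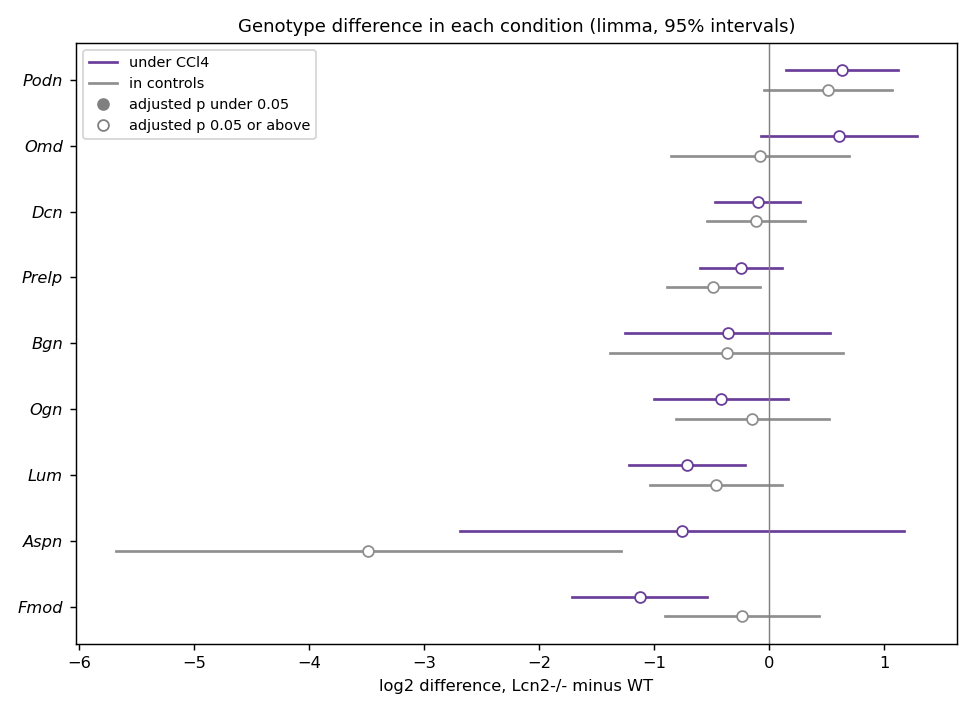
Log2 difference between Lcn2-/- and WT (horizontal axis) under CCl4 (purple) and in controls (grey), with 95% intervals. No point is filled, since none of the 9 genes had an adjusted p under 0.05. The intervals of Fmod, Lum and Podn under CCl4 leave out 0, as do those of Prelp and Aspn in controls, where Aspn is a description only.

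**Figure D4:**
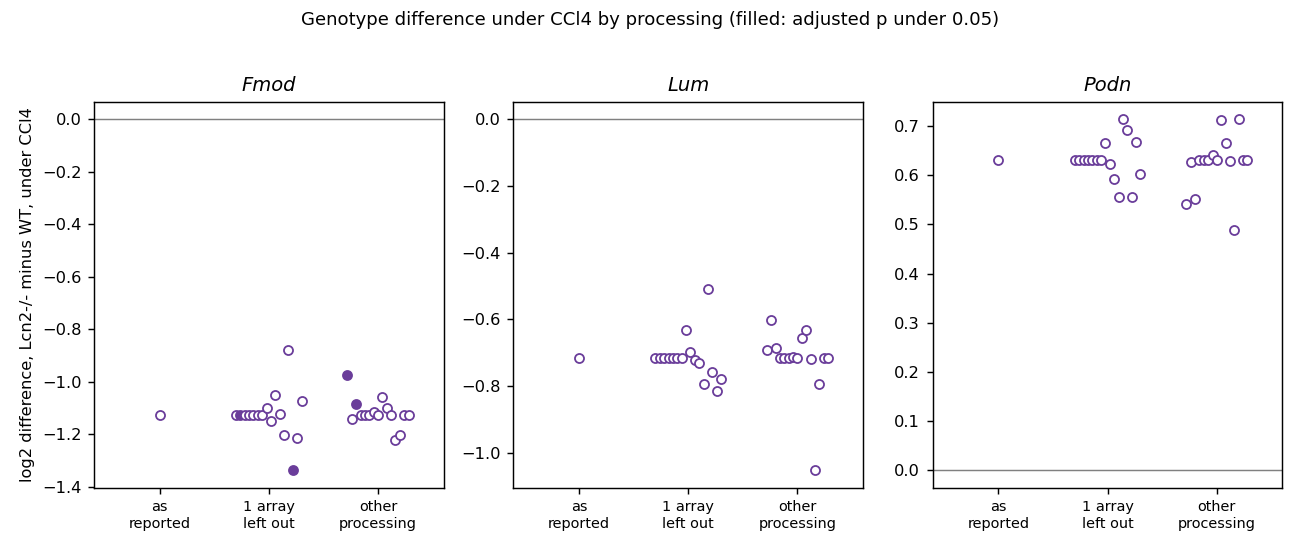
Log2 difference between Lcn2-/- and WT under CCl4 (vertical axis) for Fmod, Lum and Podn as reported, without each of the 16 arrays in turn, and under the other processing choices, filled where the adjusted p is under 0.05. Fmod stays between -1.34 and -0.88, Lum between -1.05 and -0.51, and Podn between 0.49 and 0.71, and Fmod alone is past the threshold in 4 of the fits.

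In controls, by limma, 0 of the 9 genes passed, against 0.517% of all genes, and 1 of the 8 other than Aspn, Prelp, had an unadjusted p under 0.05, against 8.31% of all genes. Its groups also did not overlap, against 9.73% of all genes. Prelp was at 6.68 ± 0.289 in WT and 6.19 ± 0.0558 in Lcn2-/-, a difference of -0.49 (SE 0.189, p 0.0214, adjusted p 0.435). Its exact permutation p was 0.0571, where the 35 splits allow no less than 0.0286. It was -0.18 with normexp correction (adjusted p 0.774), -0.26 in the authors' value table (adjusted p 0.669) and -0.82 with tier as a block (adjusted p 0.715). Lum differed by -0.47 (interval -1.04 to 0.11), Fmod by -0.24 (-0.90 to 0.43), Bgn by -0.37 (-1.38 to 0.64) and Dcn by -0.12 (-0.54 to 0.31). Single arrays moved these sizes. With 1 array left out Lum ran from -0.63 to -0.26, Fmod from -0.50 to -0.10, Bgn from -0.70 to -0.08 and Dcn from -0.21 to -0.01. Ogn and Omd differed by -0.15 and -0.08.

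Aspn, asporin, needs separate reading, because it was well above background on 4 of 16 arrays. It read 2.88, 5.95, 8.08 and 8.69 in WT control, where the last 3 were well above background. It read 2.93, 2.93 and 2.88 in Lcn2-/- control. In WT CCl4 it read 2.95, 5.59, 4.51, 3.85 and 3.77, of which the second was well above background, and in Lcn2-/- CCl4 3.61, 2.93, 2.94 and 4.03. No Lcn2-/- array was thus well above background. In controls the mean Aspn signal was 2.91 in Lcn2-/- and 6.40 in WT. The groups overlapped, with the lowest WT control array at 2.88. No bound on a gene difference is drawn from these means. Tier and genotype cannot be told apart in controls, and the spot lies at the array edge, as described below. The probe was kept by the filter through WT control, the group where it is high, so its differences are given as a description, and calls made on it under other settings are not read.

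The Aspn spot lies in row 384, the last row of the array. Of the other 328 dim gene spots in the last 5 rows, 8.54% to 30.2% were well above background on the 8 arrays of tier 1 and 0% to 0.915% on the 8 of tier 2. Of 23433 dim spots away from the edges the shares were 3.14% to 11.9% and 2.17% to 4.82%. All 4 arrays with Aspn well above background were in tier 1. The part of spot position in the Aspn signal was not tested. The Dcn spot lies in row 383 and was bright on all arrays, between 16.32 and 17.60.

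**Figure D5:**
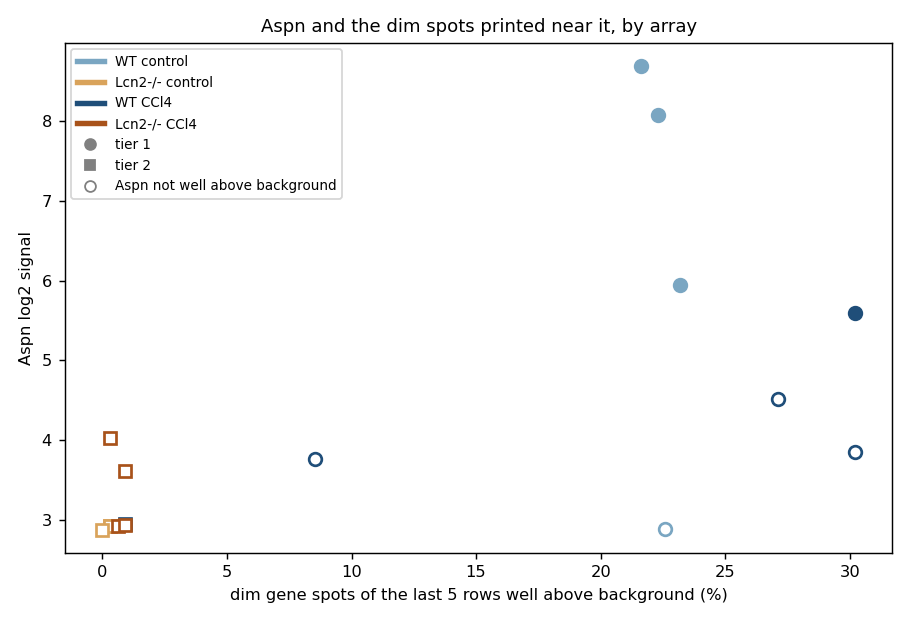
Aspn log2 signal (vertical axis) against the percentage of other dim gene spots in the last 5 rows that were well above background (horizontal axis), 1 point per array, coloured by group, with circles for tier 1, squares for tier 2 and open points where Aspn was not well above background. The 8 tier 2 arrays lie at or below 0.915% on the horizontal axis and at or below 4.03 for Aspn.

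Arrays of a group differed from each other in part along with the members. Over the 16 arrays, after each group's mean was removed, r was 0.65 between Lum and Fmod and 0.61 between Dcn and Bgn. Podn ran against members of both class I and class II, with r of -0.65 to Bgn, -0.51 to Dcn, -0.42 to Aspn and -0.41 to Fmod. WT control 2 was the lowest WT control for 6 of the 9 genes, and Lcn2-/- control 3 the lowest Lcn2-/- control for 6. Among the 24348 other genes, the nearest to Fmod by this r was Htra1, a secreted serine protease that cleaves matrix proteins (0.93). The nearest to Dcn was Prkg1, a cGMP-dependent kinase (0.92), and to Lum Serp2 (0.91). For Bgn it was Ptov1 (0.96), for Omd Pdilt (0.93), for Podn Ssr3 (0.89) and for Ogn Il17re (0.85). That of Aspn was Gm11346 (0.86). Aspn was well above background on only 4 of the 16 arrays, so its r describes mostly dim signal. For Prelp it was a probe with no gene symbol (0.87), followed by Ang2 (0.86). These values describe 16 arrays that share slides and tiers.

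The partners of the small leucine-rich proteoglycans were read from lists of their known binding, processing and chain-making genes. The fibrillar collagens and fibril partners rose most often, with 15 of 18 genes past the threshold in WT and 13 of 18 in Lcn2-/-, all higher. Of all genes, 8.05% and 6.56% passed as higher. The medians of 1.83 and 1.93 stand against -0.03 and -0.02 over all genes. Col1a1, the alpha 1 chain of type I collagen, led both genotypes at 3.49 and 4.21, followed by Col1a2 in WT at 2.89 and Col3a1 in Lcn2-/- at 3.20. Under CCl4, 17 of the 18 had lower means in Lcn2-/-, with a median of -0.47, and in controls 17 of 18, with a median of -0.54, while 0 of 18 passed in either comparison.

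Of 13 proteinases and their enhancers that act on these proteins, 7 rose in WT and 6 in Lcn2-/-. The largest were Mmp12, the macrophage elastase, at 6.19 and 6.35, and Mmp2, gelatinase A, at 3.82 and 4.38. Of 22 growth factors and receptors that members bind, 7 rose and 2 fell in WT and 4 rose in Lcn2-/-. For both lists the shares of all genes are the background. In WT 16.7% passed in either direction and 8.05% as higher, and in Lcn2-/- 12.1% and 6.56%. Tgfb3 rose by 2.63 and 2.29, and Pdgfb by 1.44 and 1.55. Ccn2, connective tissue growth factor, rose by 1.83 in WT and differed by 1.24 in Lcn2-/-, where it did not pass (limma adjusted p 0.0583).

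Of 21 genes for chondroitin and dermatan sulphate chains, the chains of decorin and biglycan, 7 rose in WT, and 6 rose and 1 fell in Lcn2-/-. Chst11, a chondroitin 4-sulphotransferase, was the most raised, by 3.67 and 2.79. Chst3, a 6-sulphotransferase, followed in WT at 1.04 and Chst15 in Lcn2-/- at 0.77. Of 10 keratan sulphate genes, which serve lumican and fibromodulin, 1 rose in each genotype, the sialyltransferase gene St3gal2, by 1.00 and 0.91, a share near the 8.05% and 6.56% of all genes that were higher. Among 5 further small leucine-rich repeat genes, Ecm2, the neighbour of Aspn, rose by 0.77 in WT and Chad, chondroadherin, fell by 0.62. Neither passed in Lcn2-/-. Of 21 other proteoglycans 4 rose and 1 fell in WT, and 3 rose and 1 fell in Lcn2-/-, led by Gpc3, a cell surface glypican, at 4.27 and 4.25, and Esm1, endocan, at 3.34 and 2.69. The shares of all genes that were higher, 8.05% and 6.56%, are the background of these counts too. For counts that include falls it is the share in either direction, 16.7% and 12.1%. In none of these 7 lists did a gene pass between genotypes or by interaction.

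Markers of cells that may hold these RNAs were read beside them. Of 11 portal fibroblast markers tested, 6 rose in WT and 7 in Lcn2-/-, where 8.05% and 6.56% of all genes rose. Their mean signal was 8.81 to 9.65 on WT control arrays, 10.31 to 10.87 in WT CCl4, 8.53 to 8.68 in Lcn2-/- control and 9.73 to 10.52 in Lcn2-/- CCl4. Of 12 hepatic stellate cell markers, 5 rose and 3 fell in WT and 5 rose and 2 fell in Lcn2-/-. The share of all genes that passed in either direction was 16.7% in WT and 12.1% in Lcn2-/-. Between genotypes 5 of the 12 were higher and 7 lower, both under CCl4 (median -0.02) and in controls (median -0.12). Of 9 myofibroblast markers 4 rose in WT and 2 in Lcn2-/-. Under CCl4 all 9 had lower means in Lcn2-/- (median -0.54), with 0 past the threshold, and their mean signal was 10.13 to 11.19 in WT and 9.77 to 10.19 in Lcn2-/-. In controls 8 of the 9 were lower (median -0.31). Portal fibroblast markers were lower in 9 of 11 under CCl4 (median -0.46) beside the lower Fmod and Lum, and in 11 of 11 in controls (median -0.66). Of 10 mesothelium and capsule markers 3 rose in WT (Wt1, Upk3b and Gpm6a) and 1 in Lcn2-/- (Wt1), and the means of all 10 were higher after CCl4 in both (medians 0.92 and 1.28). Under CCl4 they were higher in Lcn2-/- in 9 of 10 (median 0.43) beside the higher Podn, with a mean signal of 8.69 to 10.07 in WT CCl4 and 8.64 to 10.68 in Lcn2-/- CCl4. In controls they were higher in 8 of 10 (median 0.31). Of 8 macrophage markers, all tested, 3 rose and 1 fell in WT and 3 rose in Lcn2-/-, led by Gpnmb at 7.10 and 9.85. Under CCl4, 6 of the 8 were lower in Lcn2-/- (median -0.60) with 0 past the threshold, and their mean signal was 12.79 to 13.54 in WT CCl4 and 12.70 to 13.40 in Lcn2-/- CCl4. In controls 5 of the 8 were lower (median -0.11), and Gpnmb was called lower (-3.76, adjusted p 0.0131), with a mean signal of the list of 11.14 to 13.27 in WT and 10.66 to 12.22 in Lcn2-/-. Of 8 cholangiocyte markers 1 rose in each genotype, Spp1, by 1.68 in WT and 2.10 in Lcn2-/-. Of 6 sinusoidal endothelium markers 1 rose in each, Lyve1, by 1.52 and 1.92, and Stab2 fell by 0.43 in WT. In these 2 lists 0 passed between genotypes, with medians under CCl4 of 0.02 and -0.04. The part of these cells in the members' differences was not tested. Of markers of tissue that might be taken along with liver, 4 of 7 for fat, 3 of 7 for pancreas and 1 of 6 for skeletal muscle passed the filter on dim probes. The defining genes Adipoq and Plin1 of fat were well above background on at most 1 array and Lep on 0. Of the muscle genes not tested, Mylpf and Tnnt3 were so on 2 arrays, Myh4 on 1, and Ckm and Myh1 on 0, and of the pancreas genes Cpa1 on 1 and Prss2 and Pnlip on 0. Fabp4 of the fat list, which macrophages and endothelium also express, rose by 0.97 in WT and 1.24 in Lcn2-/-, while Cfd fell by 2.12 and the pancreas marker Ctrb1 fell by 0.88 in WT. Under CCl4 the 3 pancreas markers tested were higher in Lcn2-/- (median 0.47), 3 of the 4 fat markers were lower (median -0.31), and 0 passed. In controls all 3 pancreas markers were higher (median 0.12) and all 4 fat markers lower (median -0.64), and 0 passed.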

How the data were processed

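From total liver RNA the authors made Cy3-labelled target (cRNA in the labels, complementary DNA in the methods), hybridised it to 1 array per animal and scanned it. Per the file headers, each file holds spot intensity values from Feature Extraction 10.7.3.1 on probes placed on mm9. A log2 value table of the same arrays was also deposited, with limma named in the submitters' processing notes. The authors' log2 values equal log2 of the median signal minus median background, quantile normalized, within 0.05 for 99.81%, and they served as an alternative. Groups came from the sample titles.

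Log2 processed signals of 59305 gene spots, without outlier spots, were quantile normalized over 16 arrays, as the study's methods name. A probe was kept if well above background on 3 or more arrays, and the probe with the highest mean stood for each symbol. limma 3.58.1 (R 4.3.3) fitted 1 model over the 4 groups with 5 contrasts, and p was Benjamini-Hochberg adjusted over 24357 genes. All 9 members are named, with the 2 largest called genes per list and the nearest genes to each member. Permutation tests were exact and two-sided. The fit was tested on simulated data. Members and lists were chosen with earlier results of these data known. Gene names came through RefSeq for 49.8% of spots. The 75th percentile of signal ran from 842.3 to 2067, and the number of arrays limits precision.

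Same-numbered control arrays had r of 0.233 to 0.552 over 3 pairs, against -0.419 to 0.302 for control pairs with different numbers. The ranges overlap. In controls the number also gives the place on the slide, so pairing of animals and array position cannot be told apart. Alternatives were the background correction, scaling, filters, probe choice, array weights, fits of the compared groups alone, slide, tier and replicate blocks, and arrays left out.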

Additional observations from a re-analysis of the deposited data

Results flagged for a closer look

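Among the 27 groups of 4 or 5 arrays of a member, 2 were flagged for 1 array far from the rest, where chance gives about 1 in 20. Both flagged groups had 5 arrays, and the flags do not list every lone array. Among groups of 4, Lum read 13.98 on Lcn2-/- CCl4 1, with the nearest array at 14.72, and was not flagged. Omd read 10.18 on WT control 1, with the nearest at 9.56, and was not flagged either. Ogn read 8.38 on WT CCl4 4, where the nearest of the other arrays was 9.27, a gap of 0.757 of the group's range. Omd read 9.79 on WT CCl4 5, against 9.03 on the nearest array, a gap of 0.731 of the range. Without WT CCl4 4 the Ogn response in WT was 0.63 (adjusted p 0.099), and without WT CCl4 5 the Omd response in WT was -0.72 (adjusted p 0.15).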

How the results depend on the processing

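In the CCl4 responses, tier as a block gives the same fit as leaving out WT CCl4 1, so the alternatives are not all separate. The rises of Lum in both genotypes and of Fmod in WT passed in all 31 alternative fits, and those of Prelp in all but the fit with slide as a fixed block. That block, which rests on WT CCl4 1, left 2 of the 9 genes past the threshold in WT and 1 in Lcn2-/-, where calls over all genes fell to 5.32% and 1.75%, and put Aspn at -1.01 and Omd at -0.15 in the Lcn2-/- response. Array weights gave 5 genes in Lcn2-/- and 6 in WT, of which Omd was lower, while calls over all genes rose to 28.6% and 28.8%. Under CCl4, 1 gene (Fmod) passed with normexp correction and 1 (Fmod) in the authors' table. Single arrays left out gave 0 to 1 genes under CCl4, 3 to 5 in WT and 2 to 3 in Lcn2-/-. In controls the only call was on Aspn, without WT control 1, and calls on Aspn are not read.

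Changes of direction were confined to differences that did not pass. The interaction of Dcn was -0.012 with normexp, -0.032 in the authors' table, -0.095 with the replicate block and -0.030 without the 2 controls nearest the CCl4 arrays (added after seeing the data). That of Bgn was -0.052, -0.12 and -0.24 with the first 3 of these and -0.0011 with slide as a random block, and that of Podn -0.059 without those 2 controls. The interaction of Ogn was 0.16 with array weights. With 75th percentile scaling, which moved the all-gene median to -0.16 in the WT response and -0.14 in the Lcn2-/- response, Aspn was -0.22 in the Lcn2-/- response and Dcn 0.086 under CCl4. Omd was -0.15 with array weights and -0.25 without the 2 controls in the Lcn2-/- response, and 0.024, 0.23 and, with tier as a block, 0.21 in controls. Aspn under CCl4 was 0.43 with tier as a block. Without single arrays the interaction ran from -0.13 to 0.11 for Dcn, -0.29 to 0.33 for Bgn and -0.095 to 0.34 for Podn. Omd ran from -0.25 to 0.34 in the Lcn2-/- response and -0.28 to 0.31 in controls, and Ogn from -0.33 to 0.027 in controls. With array weights Ogn was 0.042 in the WT response and -0.14 under CCl4, and Lum was -0.16 in controls. With tier as a block Bgn was -1.61 and Lum -0.89 in controls. The cause was not tested.

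With the replicate block 4 genes passed in WT, 3 in Lcn2-/- and 0 in the others, where 15.4%, 12.2%, and at most 0.378% of all genes did, and the added gene was Dcn (0.65, adjusted p 0.0204). In controls, where the r of same-numbered arrays was highest, the block changed no call. Leaving out the edge rows (also added after seeing the data) removes the Dcn and Aspn probes. Slide and tier could not be fitted together.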
